A study of Drosophila melanogaster with 15 samples.

Results

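Sgs1, Sgs5, Sgs5bis and Eig71Ee are genes of the secreted glue of the Drosophila larval salivary gland, and the 4 of them were taken by symbol from rows annotated to a single gene. Each had 1 row, out of 9894 named genes measured in all, and each was measured on all 15 arrays, as were 34.6% of features (a feature is a gene, or a row with several genes or none). The arrays compared wild-type larvae of the Canton S strain at about 18 hours before pupariation. Salivary gland, epidermis with attached muscle, wing disc, midgut and central nervous system were dissected, and each was measured on 3 arrays of independent samples. No group carried a mutation or a treatment, and the labels give neither sex nor the number of animals pooled. Amplified RNA of 1 tissue in Cy5 was set against whole animals of the same stage in Cy3 on every array, with no dye swap.

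The salivary glands of a third-instar larva make a mixture of mucins and small proteins, store it in granules, and expel it at pupariation, when it hardens and fixes the animal to its substrate. Mucins are long proteins whose repeats of serine and threonine carry sugar chains that begin with N-acetylgalactosamine. The genes for the glue are switched on in the gland by ecdysone before the end of the third instar, together with gland transcription factors such as Fork head and Sage, and are switched off again by the high hormone pulse before pupariation. Sgs1 encodes a very long mucin of the glue. Sgs5 and Sgs5bis encode small glue proteins of related sequence. Eig71Ee encodes a mucin that has been described in glue and also in the lining of the gut and in blood clots.

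Values are log2 ratios, tissue divided by whole animal, centred on the median of each array, so that 0 marks the typical feature. Ratios in different tissues can be compared for the same gene, whereas the ratio holds no absolute level, and fewer cells of a type cannot be told apart from less RNA per cell. Arrays measured 7747 to 13505 rows, and the median SD between arrays of a tissue lay between 0.26 and 0.373 log2. The tissue labels were set against marker genes measured on all arrays. The mean of 11 midgut markers was 1.30 to 1.40 on midgut arrays, that of 6 cuticle markers 1.42 to 2.39 on epidermis arrays, that of 2 wing disc markers 1.84 to 2.12 on wing disc arrays, and that of 2 neuron and glia markers 1.06 to 1.53 on central nervous system arrays. In each case these were the highest means of the 5 tissues. Of 8 neuron and glia markers with a row, only 2 entered this mean. Between gland and central nervous system 7 were tested, of which 1 was lower in the gland and 6 did not pass (median -0.02). Of 6 wing disc markers tested between gland and wing disc, 4 were lower in the gland and 2 did not pass. Of all features, 1132 of 9845 and 985 of 9809 were lower in the gland in these comparisons.

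All 4 genes were far above whole animal in the salivary gland and below it in the other 4 tissues. The 12 gland values lay between 2.96 and 5.87 log2, and 47 of the 48 values elsewhere lay below 0. Gland and non-gland values did not overlap for any of the 4 genes, though the share of all features with such a gap was not counted. Relative to whole animal, 4 of 4 genes passed the test higher in the gland, where 16.9% of all features did so. All 16 tests of these genes in the other tissues passed as lower, against 12.5% of features in epidermis, 20.6% in wing disc, 15.1% in midgut and 21.3% in central nervous system. These tests are adjusted p-values (Benjamini-Hochberg) of a limma fit over all 15 arrays, with a threshold of 0.05. Ratios to whole animal leave out the spread of the reference and hold any dye effect of a gene. Whole animals include the salivary gland, so RNA of the gland raises the reference for genes high in it. The lower calls elsewhere are therefore not a result separate from the higher calls in the gland.

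**Figure D1:**
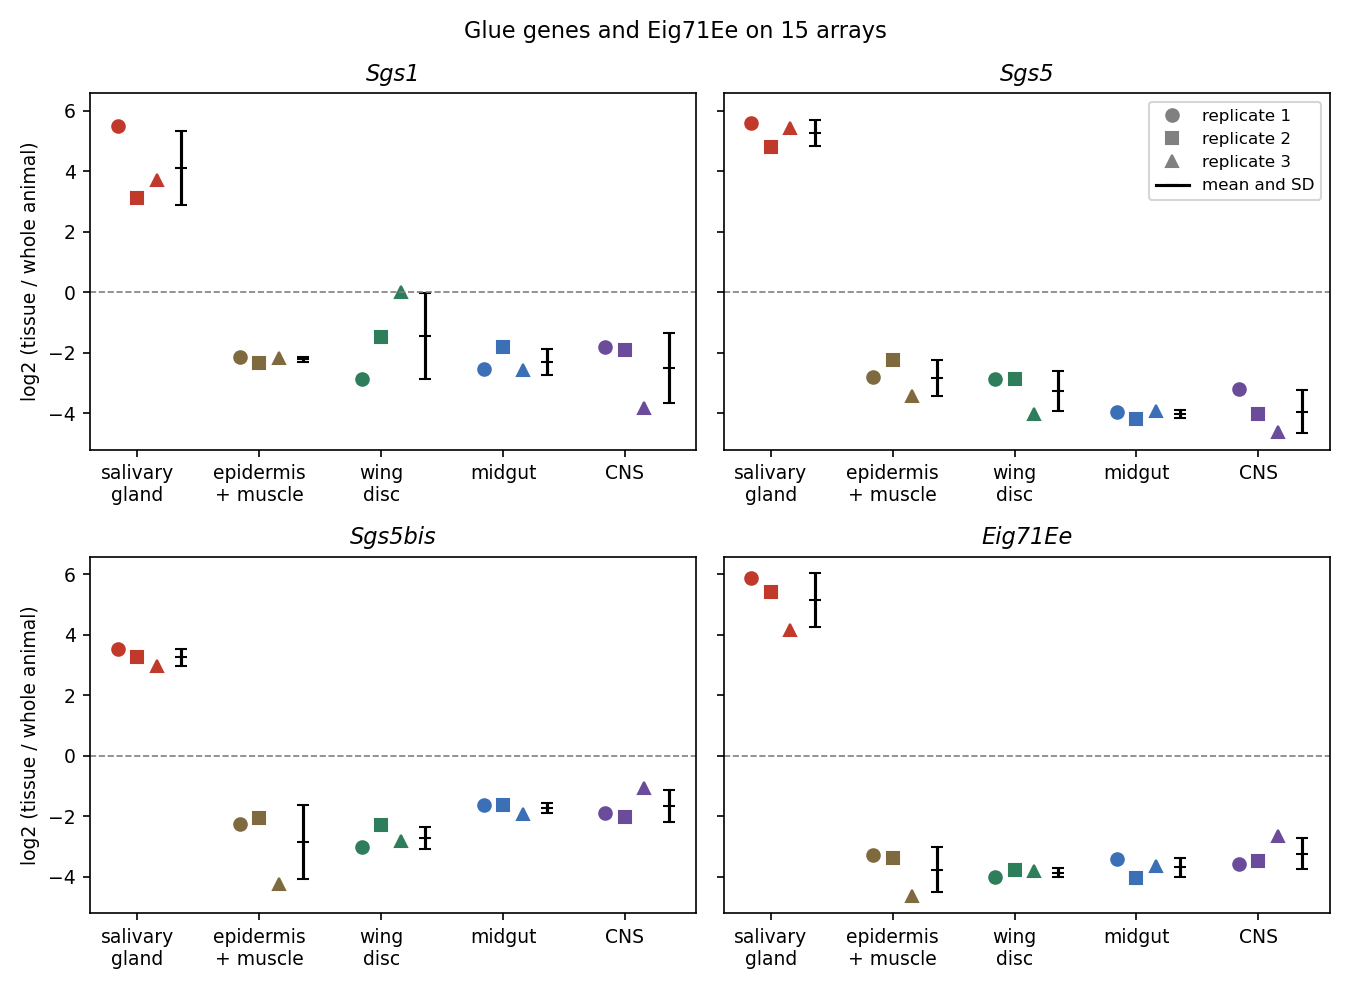
Log2 ratio of tissue over whole animal (vertical axis) for each gene in the 5 tissues (horizontal axis). Symbols are the 3 arrays of a tissue, bars the mean and SD, and the dashed line whole animal; gland values lie between 2.96 and 5.87, and the Sgs1 value of wing disc replicate 3 at 0.01 is the only one elsewhere that is not below 0.

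Eig71Ee, the mucin gene of the ecdysone-induced cluster, stood at 5.87, 5.41 and 4.17 on gland replicates 1 to 3. Its ratio was the highest of all features on replicates 1 and 2 and the 12th highest of 9786 on replicate 3. Their mean of 5.15 (SD 0.882, n = 3) corresponds to 35.5-fold above whole animal. The SD in the gland was larger than that of 95.3% of features measured on all 3 gland arrays.

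Outside the gland the ratio of Eig71Ee to whole animal was low everywhere. It stood at -3.29, -3.38 and -4.62 in epidermis, at -4.02, -3.77 and -3.80 in wing disc, at -3.41, -4.04 and -3.63 in midgut, and at -3.56, -3.48 and -2.64 in central nervous system. The highest of these 12 values was that of central nervous system replicate 3 and the lowest that of epidermis replicate 3. The tissue means ran from -3.23 to -3.86, and none of the 6 pairs of these tissues passed the test. Their intervals were wide, with a 95% interval of -1.51 to 0.24 for wing disc minus central nervous system. Under quantile normalization midgut minus central nervous system passed, at -1.36 (adjusted p = 0.0152). In midgut, one of the places from which the protein has been described, the mean RNA ratio of -3.69 (SD 0.321, n = 3) was 12.9-fold below whole animal. There it lay 14 to 38 places from the bottom of the array. Whole animals include the gland, so this ratio does not show whether midgut holds Eig71Ee RNA, and protein was not measured.

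Sgs5, a small glue protein gene, was also near the top of every gland array. It stood at 5.60, 4.79 and 5.42 on the gland arrays, which placed it 2nd, 2nd and 3rd from the top. The mean was 5.27 (SD 0.424, n = 3), or 38.5-fold above whole animal. In midgut it stood at -3.95, -4.18 and -3.93, within the lowest 15 features on each of the 3 arrays. In epidermis the values were -2.81, -2.25 and -3.44, in wing disc -2.88, -2.85 and -4.01, and in central nervous system -3.18, -4.01 and -4.62. Epidermis and midgut values of Sgs5 did not overlap, though the share of all features with such a gap was not counted. Their means were -2.83 (SD 0.598) and -4.02 (SD 0.136), and the difference of 1.19 missed the threshold (adjusted p = 0.0503 by limma). It passed under quantile normalization (1.71, adjusted p = 0.000187) and with array weights (1.66, adjusted p = 7.5e-05). It did not pass after scaling to a common spread (1.24, adjusted p = 0.186), without centring (1.12, adjusted p = 0.0701) or without epidermis replicate 2 (0.896, adjusted p = 0.168).

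Sgs5bis, the neighbour of Sgs5, had a lower ratio in the gland than Sgs5, and an SD there that exceeded that of 42.1% of features. Its gland values were 3.54, 3.25 and 2.96, with a mean of 3.25 (SD 0.292, n = 3), or 9.52-fold above whole animal. It ranked 24th, 21st and 47th from the top. The values in midgut were -1.63, -1.63 and -1.93 and in central nervous system -1.89, -2.02 and -1.06. They were -3.02, -2.30 and -2.81 in wing disc and -2.24, -2.05 and -4.25 in epidermis. Every midgut value lay above every wing disc and epidermis value, but neither difference passed (-1.12 for epidermis minus midgut, adjusted p = 0.108; -0.98 for wing disc minus midgut, adjusted p = 0.128). The share of all features separated in this way was not counted.

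Sgs1, the long glue mucin, had the largest SD in the gland of the 4 genes. Its gland values were 5.49, 3.12 and 3.71, which ranked 3rd, 25th and 23rd from the top. The mean was 4.11 (SD 1.23, n = 3), or 17.2-fold above whole animal, and the SD exceeded that of 99.1% of features in the gland. In epidermis the 3 values of -2.15, -2.33 and -2.17 were close together (SD 0.0947). In midgut they were -2.55, -1.81 and -2.58, and in central nervous system -1.80, -1.90 and -3.83.

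Wing disc was where Sgs1 spread most, at -2.85, -1.48 and 0.01, with an SD larger than that of 99.9% of features there. On wing disc replicate 3 Sgs1 stood in the middle of the array, with 50.6% of features below it. The other genes of the set were low on that array, with Sgs5 at -4.01, Sgs5bis at -2.81 and Eig71Ee at -3.80. Among the 20 named genes with the largest gland differences, the 17 others measured on that array had a median of -2.24, against -2.88 on replicate 1 and -2.53 on replicate 2, where 19 were measured. The wing disc mean of Sgs1 relative to whole animal, -1.44 (adjusted p = 0.0252), did not pass without wing disc replicate 1 (-0.733, adjusted p = 0.28) or without replicate 2 (-1.42, adjusted p = 0.081). Without replicate 3 it was -2.17 (adjusted p = 0.00437).

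**Figure D2:**
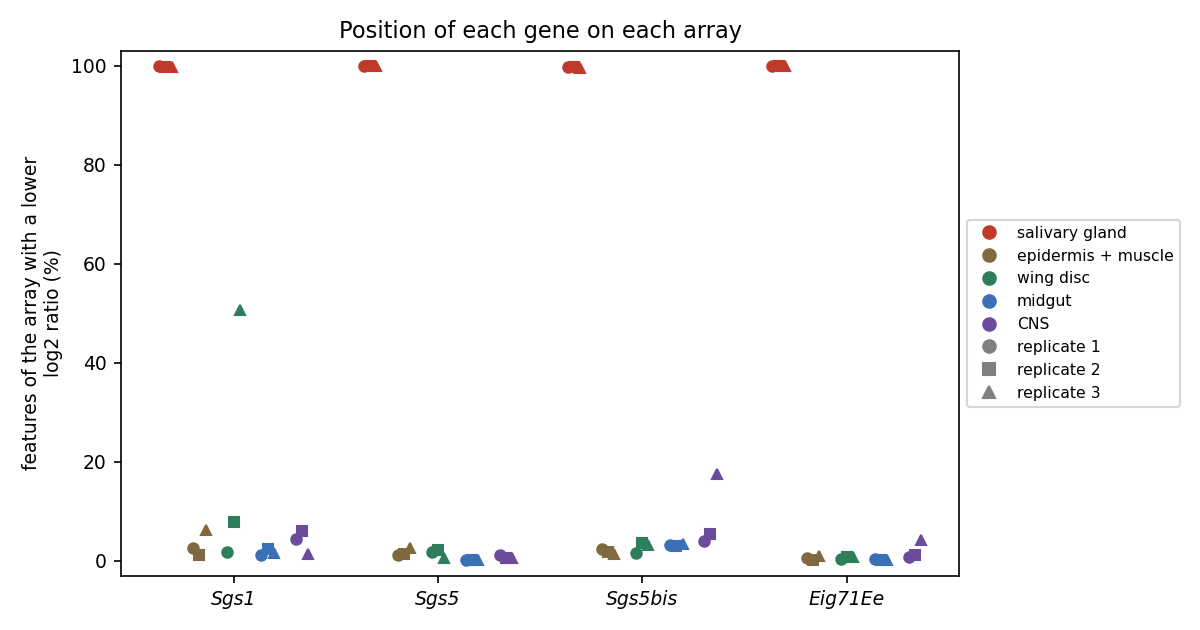
Position of each gene on each array, as the percentage of that array's features with a lower log2 ratio (vertical axis), by gene (horizontal axis), tissue (colour) and replicate (symbol). The 12 gland values lie within the top 50 features of their arrays, and 46 of the 48 others lie in the lowest 10%, the exceptions being Sgs1 on wing disc replicate 3 (50.6%) and Sgs5bis on central nervous system replicate 3 (17.6%).

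How far the gland stood above each other tissue was read from the pairs, in which the reference and any constant dye effect cancel. All 16 pairs of the gland with another tissue passed the test for the 4 genes, with differences of 4.91 to 9.29 log2, the largest being 624-fold. Of all features, 3.80% passed as higher in the gland than in epidermis, 8.28% than in wing disc, 6.23% than in midgut and 7.73% than in central nervous system.

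For Sgs5 the difference was largest against midgut, at 9.29 (SE 0.394, adjusted p = 4.10e-10), and smallest against epidermis, at 8.10 (SE 0.394, adjusted p = 1.34e-09). These were 624-fold and 274-fold. For Eig71Ee they ran from 8.38 (SE 0.414) against central nervous system to 9.01 (SE 0.414) against wing disc, or from 333-fold to 516-fold. Sgs1 exceeded wing disc by 5.55 (SE 0.673) and central nervous system by 6.62 (SE 0.673), which were 46.7-fold and 98.2-fold. For Sgs5bis the largest difference was against epidermis, at 6.10 (SE 0.443), and the smallest against central nervous system, at 4.91 (SE 0.443).

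Against the mean of the other 4 tissues, where 7.72% of features passed as higher and 10.3% as lower, Eig71Ee and Sgs5 had the largest and second largest differences of 8432 features, and Sgs1 and Sgs5bis ranked 11th and 15th. Without gland replicate 1, 396 features passed as higher and 429 as lower, in place of 651 and 870. Sgs5bis was higher by 5.49 (SE 0.351, adjusted p = 1.85e-08), or 44.8-fold. In a test for any difference among the 5 tissues, which 44.5% of features passed, Sgs5 ranked 2nd (F = 201), Eig71Ee 5th (F = 181), Sgs5bis 108th (F = 64.3) and Sgs1 367th (F = 34.9).

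Among the other 4 tissues, 0 of 24 pairs passed the limma test for these genes, while 6 had an unadjusted p under 0.05. All 6 of those were pairs of Sgs5 or Sgs5bis. Of all features, between 5.53% (wing disc against central nervous system) and 26.8% (midgut against central nervous system) passed in these pairs, with 11.1%, 16.4%, 15.4% and 24.7% in the rest. The largest difference was 1.19, with a 95% interval of 0.35 to 2.02 for Sgs5 in epidermis minus midgut and of -2.13 to -0.25 for Sgs5bis in epidermis minus central nervous system. Other settings gave up to 5 calls, under quantile normalization, of which 3 were of Sgs5. Array weights gave 4 calls, and leaving out epidermis replicate 3 gave 4 as well. Leaving out wing disc replicate 3 gave 3, and leaving out epidermis replicate 1, epidermis replicate 2 or central nervous system replicate 1 gave 2 each. Salivary gland replicate 2 and central nervous system replicate 3 gave 1 each when left out. Fitting features on all 15 arrays and fitting each row on its own also gave 1 each, both Sgs5 in epidermis minus midgut. None of these calls were of Sgs1.

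**Figure D3:**
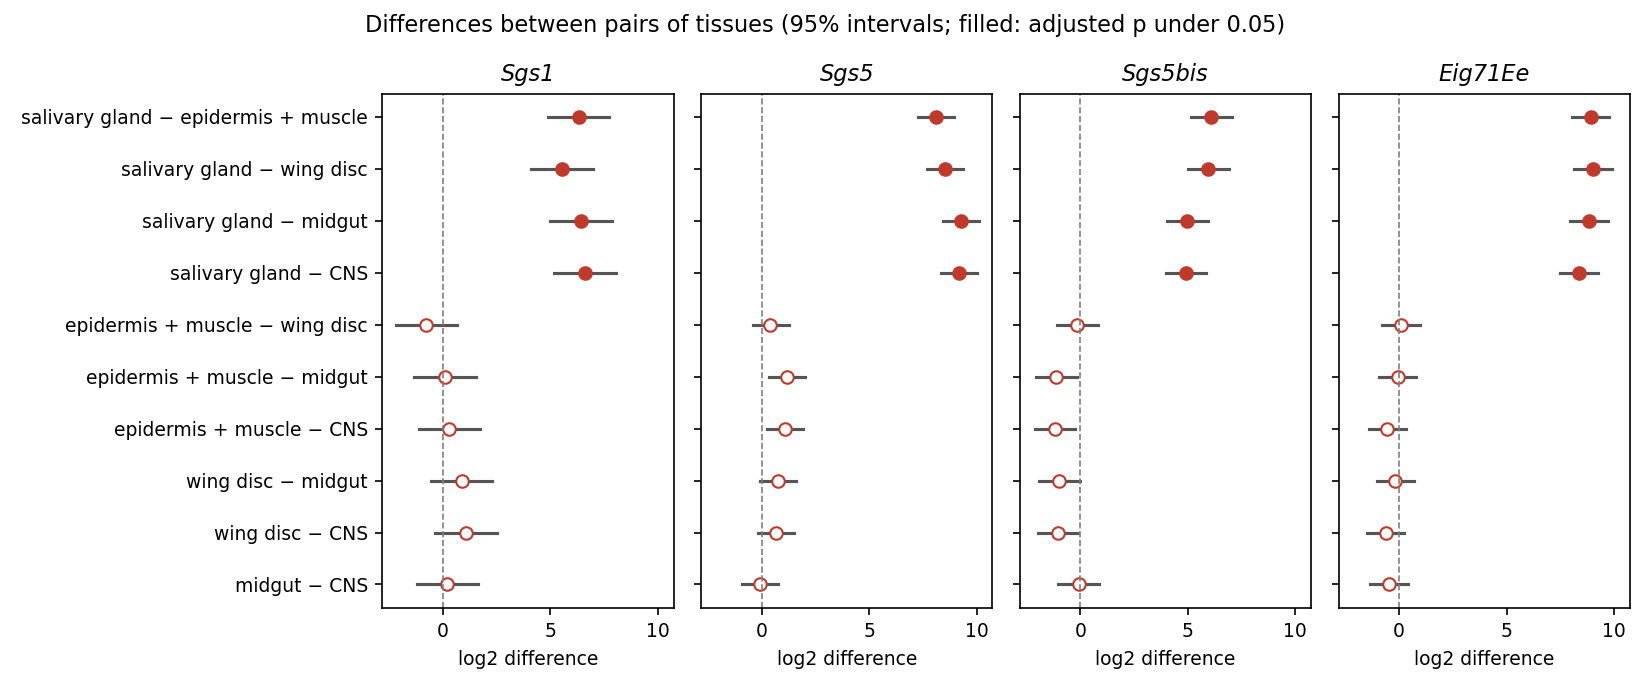
Log2 difference between 2 tissues (horizontal axis) for each pair (vertical axis) and gene, with 95% intervals of the limma fit and filled circles for adjusted p under 0.05. The 16 pairs with the gland lie between 4.91 and 9.29, and the 24 pairs without it lie within 1.19 of 0.

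Within an array, the difference between a pair of these genes shows whether both exceeded the other tissues by the same amount. It was compared between the 3 gland arrays and the other 12 for 6 pairs, with a two-sided exact permutation test over arrays, whose smallest possible p is 0.0022. Sgs5 minus Sgs5bis was 2.02 (SD 0.463, n = 3) in the gland and -1.27 (SD 1.26, n = 12) elsewhere. The gap of 3.29 had the smallest p that the exact test allows (adjusted p = 0.0044 over the 6 pairs). Eig71Ee minus Sgs5bis had a gap of 3.30 with the same p, from 1.90 (SD 0.604) in the gland and -1.40 (SD 0.512) elsewhere. The 3 gland values lay above all 12 others for both pairs. Outside the gland 46 of the 48 values of these genes lay in the lowest 10% of their arrays. Whether a lower limit of the ratios entered these gaps was not tested.

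Sgs5 minus Sgs1 had a gap of 2.55 (exact permutation p = 0.0022, adjusted p = 0.0044) and Eig71Ee minus Sgs1 of 2.56 (exact permutation p = 0.00659, adjusted p = 0.00989). Without gland replicate 2 these gaps were 2.30 (adjusted p = 0.0659) and 1.94 (adjusted p = 0.0989). Sgs1 minus Sgs5bis, at 0.74 (adjusted p = 0.464), and Eig71Ee minus Sgs5, at 0.01 (adjusted p = 0.978), did not pass. For these last pairs, and for Eig71Ee minus Sgs1, the gland values overlapped those of the other arrays.

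The same differences were examined among the other 4 tissues, where no pair of tissues had passed for either gene. Sgs5 minus Sgs5bis was -0.57, -0.20 and 0.81 in epidermis and 0.14, -0.55 and -1.20 in wing disc. It was -2.32, -2.55 and -2.0 in midgut and -1.29, -1.99 and -3.56 in central nervous system. Each of the latter 6 values lay below each of the former 6. An exact permutation test over all 15400 divisions of the 12 arrays into groups of 3, added after these values were seen, gave adjusted p = 0.038 over the 6 gene pairs. Eig71Ee minus Sgs5bis gave adjusted p = 0.038 too, with means of -0.92 in epidermis, -1.15 in wing disc, -1.96 in midgut and -1.57 in central nervous system, and the other 4 pairs did not pass. Both calls were lost under quantile normalization (adjusted p = 0.0699 for each). Each was also lost with 10 of the 12 arrays when these were left out singly, and passed for Sgs5 only without central nervous system replicate 1 or 3 and for Eig71Ee only without epidermis replicate 2 or central nervous system replicate 1. The adjusted p ran from 0.0343 to 0.161 for Sgs5 and from 0.0113 to 0.213 for Eig71Ee, both highest without midgut replicate 2. Because the 2 Sgs5 genes are similar in sequence, cross-hybridisation between their rows was not tested, and their separate values are uncertain.

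**Figure D4:**
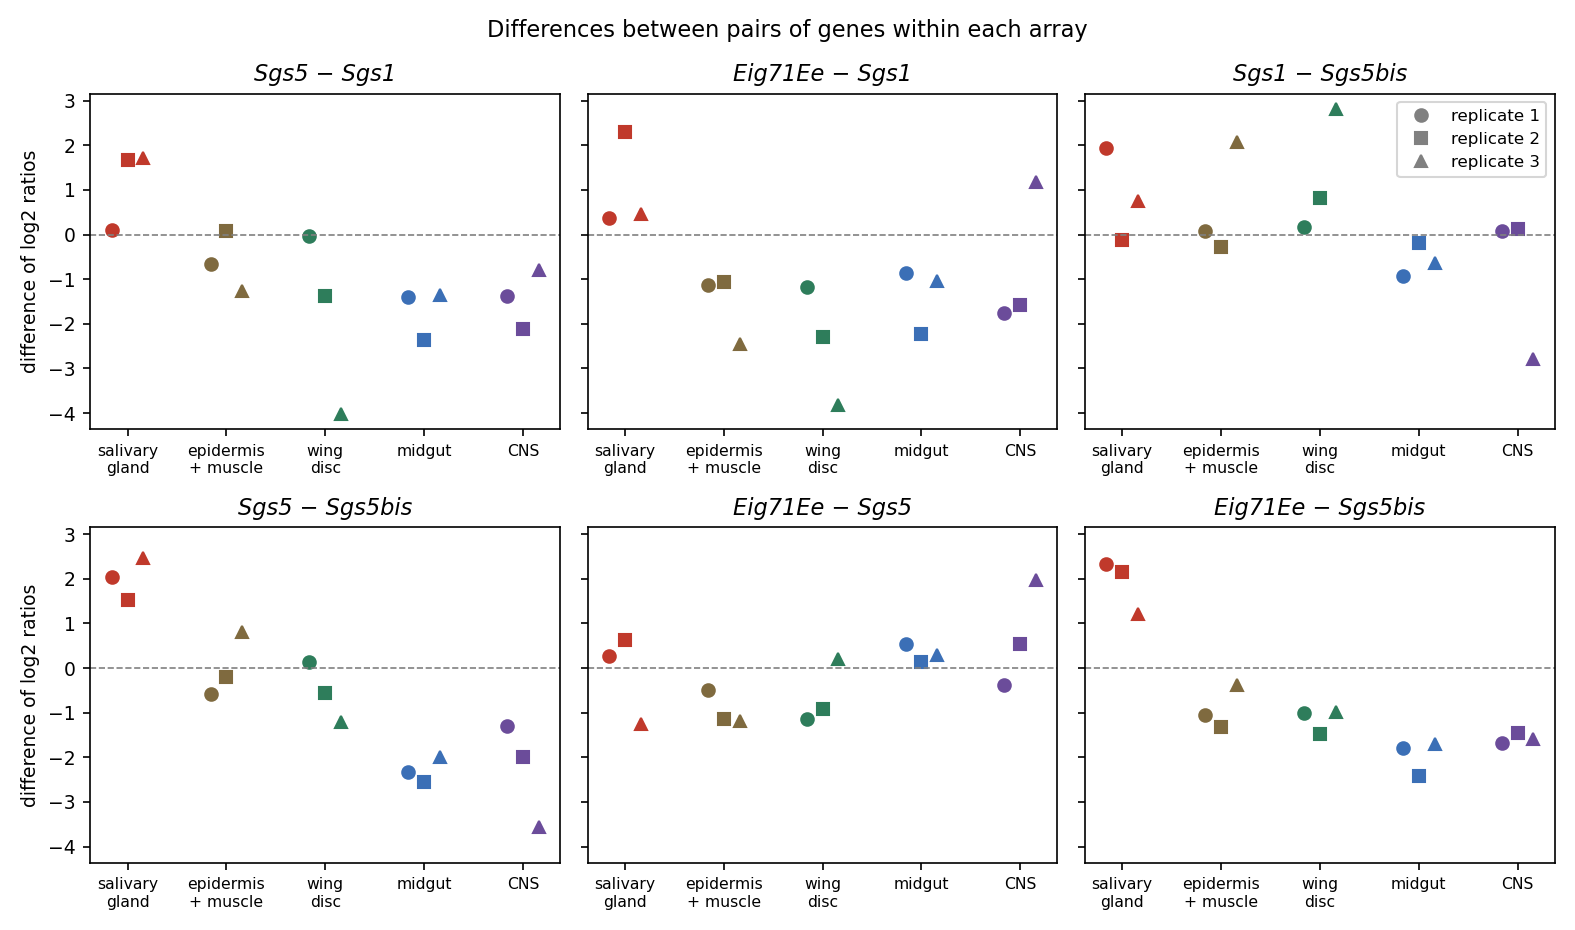
Difference between the log2 ratios of 2 genes within each array (vertical axis) by tissue (horizontal axis) for the 6 gene pairs, with symbols for the 3 replicates. Sgs5 minus Sgs5bis lies between 1.53 and 2.46 in the gland and between -3.56 and 0.81 elsewhere.

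The rest of the glue genes were covered thinly. Of 12 listed glue genes 5 had a row of their own, the fifth being ng3, a small new-glue gene of the Sgs4 region. All 5 passed as higher in the gland than in the other 4 tissues, where 7.72% of all features did so. Because 4 of them are the genes already described, this count adds only ng3 to the results above. The median of the 5 was 6.23, the value of Sgs1, against a median of -0.07 over all features. ng3 was higher by 5.11 (SE 0.447, adjusted p = 7.65e-07), and its gland ratio to whole animal was 2.34 (SD 0.464, n = 3), below those of the 4 genes above. The table also held 9 rows annotated to a glue gene together with other genes, which were not used for any single gene.

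Eig71Ee lies in a cluster of ecdysone-inducible genes. Of 11 cluster genes 9 had a row of their own. Relative to whole animal 7 were tested in the gland, of which 4 passed as higher and 3 did not pass, with a median of 0.71 (16.9% of all features passed as higher). Those that passed besides Eig71Ee were Eig71Ea at 1.31 (SD 0.371, n = 3), Eig71Eg at 0.81 (adjusted p = 0.0356) and Eig71Ek at 0.71 (SD 0.579, n = 3). Against the mean of the other 4 tissues 2 could be tested. Eig71Ea, at one end of the cluster, was higher in the gland by 1.54 (SE 0.203, adjusted p = 8.90e-05), and it could not be tested without central nervous system replicate 1 or 2, which left 1 array of that tissue. Eig71Ed, Eig71Eg, Eig71Eh, Eig71Ei, Eig71Ej and Eig71Ek had values on 6 to 8 of the 15 arrays, too few for that test. Their gland ratios to whole animal lay between -0.30 for Eig71Ej (n = 2 arrays) and 0.81 for Eig71Eg (SD 0.489, n = 2). Eig71Ef had a value on 9 arrays and on no gland array.

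Genes beside the other 3 glue genes were also examined, in the order of the RefSeq annotation (assembly Release 6 plus ISO1 MT), after their values had been seen. The gene immediately before Sgs1, hoe2, which encodes a relative of the mammalian P protein of pigment granules, was higher in the gland than in the other 4 tissues by 4.27 (SE 0.29, adjusted p = 3.76e-08). Its gland values were tight, with a mean of 3.97 (SD 0.20, n = 3) against whole animal. Elsewhere its means were 0.50 in epidermis, 0.74 in central nervous system, -0.64 in midgut and -1.81 in wing disc. The gene on the other side of Sgs1, synr, stood at 1.86 (SD 0.966, n = 3) in the gland relative to whole animal (adjusted p = 0.000332).

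Sgs5bis, Sgs5 and the unnamed gene CG7606 follow each other directly. CG7606 was higher by 6.94 (SE 0.369), between the differences of Sgs5 and Sgs5bis. Next to it, sll, a transporter gene for the sulfate donor of the Golgi, was higher by 1.14 (SE 0.311, adjusted p = 0.0188), while Hmx, a homeobox gene before Sgs5bis, was at 0.00 (SE 0.173, adjusted p = 1). Over the 5 protein-coding genes on each side of every member, 13 of 30 distinct neighbours could be tested. Of these 6 were higher in the gland and 1, the mitochondrial peroxiredoxin gene Prx3, was lower at -1.04 (SE 0.209), against 7.72% higher and 10.3% lower of all features. The other higher neighbours were betaggt-I, a subunit gene of a protein prenyltransferase, at 1.04 (SE 0.193) and Edg91, an ecdysone-dependent cuticle gene, at 1.17 (SE 0.188). None of the neighbours overlaps a glue gene or Eig71Ee in the annotation.

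**Figure D5:**
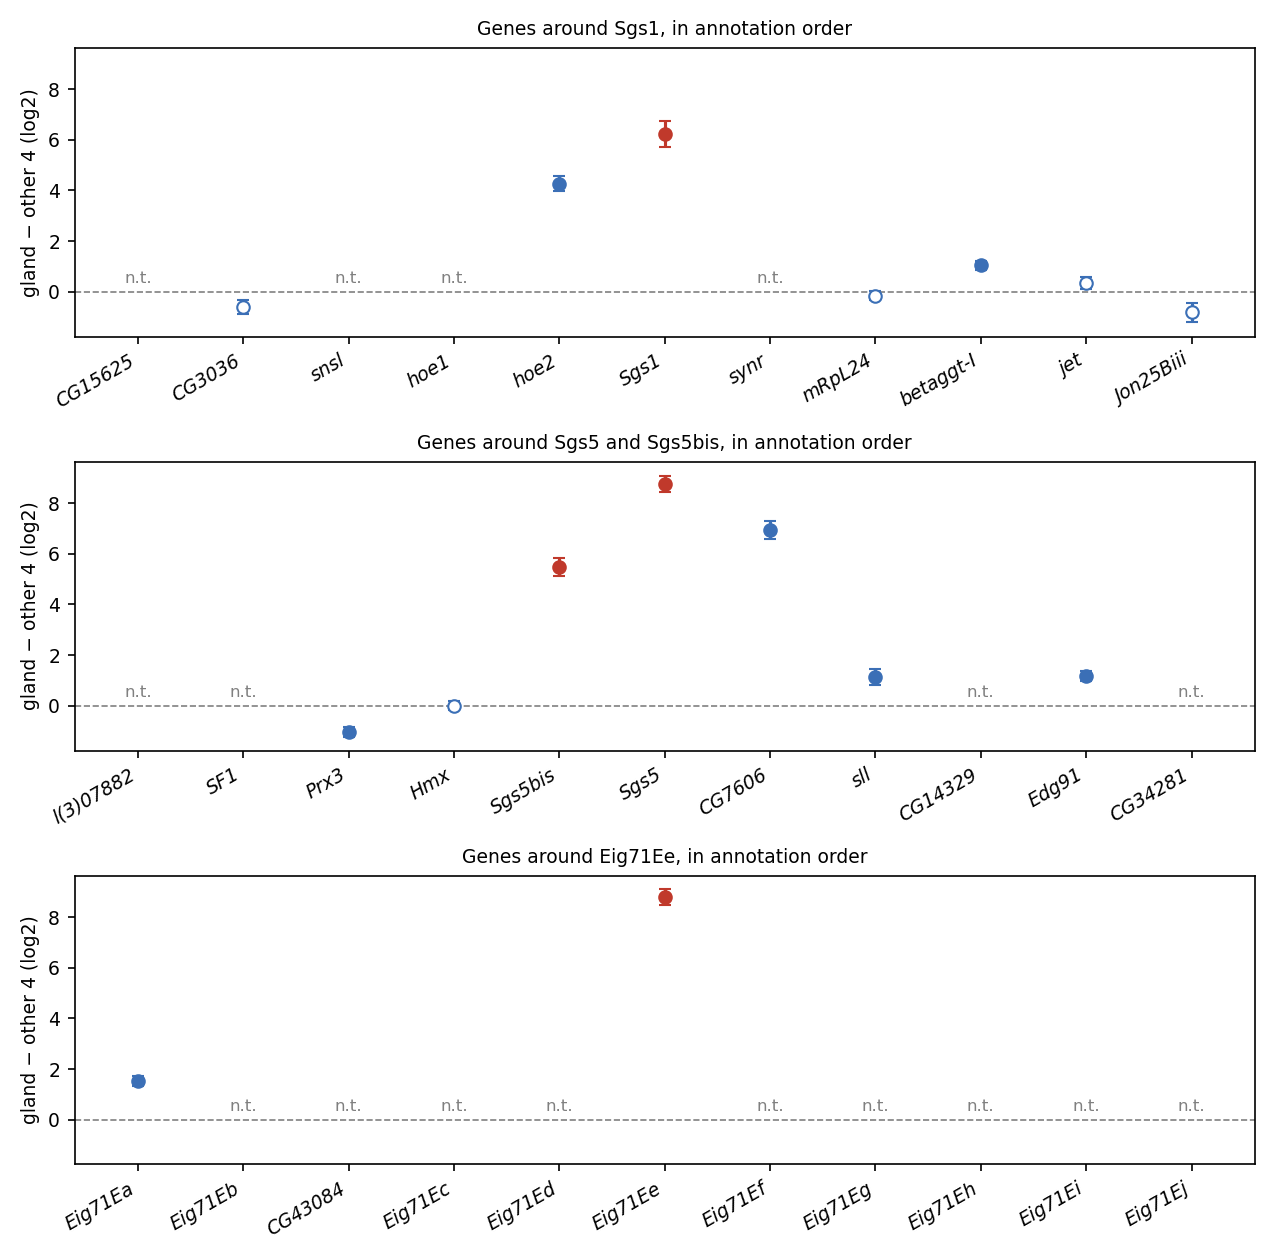
Salivary gland minus the mean of the other 4 tissues (vertical axis, log2, bars are SE) for the genes around Sgs1, around Sgs5 and Sgs5bis, and around Eig71Ee, in annotation order (horizontal axis). Glue genes and Eig71Ee are red, filled points passed the limma test and n.t. marks genes not tested; hoe2 (4.27) and CG7606 (6.94) are the highest neighbours.

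The genes closest to each member across arrays were found by the root mean square of the differences in log2 ratio, over 6645 named genes with at least 12 arrays in common. The measure weighs the gland arrays heavily, because all these genes are high there. The closest to Eig71Ee was the unnamed gene CG9040, at 0.67 log2 over 15 arrays, and the second was Sgs5 at 0.889. Over the 12 arrays outside the gland, which share 1 reference, Pearson's r as a description was -0.194 between Eig71Ee and Sgs5 and 0.813 between Eig71Ee and Sgs5bis, which was not among its 5 closest genes. CG9040 was also closest to Sgs5, at 0.827. CG7606 was closest to Sgs5bis, at 0.873, ahead of Sgs5 itself, which lay 1.82 away from Sgs5bis. The unnamed gene CG12715 was closest to Sgs1 at 0.872, followed by the gland transcription factor gene sage at 0.887. The mucin gene Muc68Ca was 4th for both Sgs1 (1.13) and Sgs5bis (1.0). CG12310, also unnamed, was among the 5 closest genes for all 4 members.

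Regulators of the gland were measured in part. Of 11 listed gland regulators 5 had a row. Against the mean of the other 4 tissues 3 were tested, and 7.72% of all features passed as higher there. The gene sage was higher, at 5.50 (SE 0.21), with gland values in the range of the glue genes (mean 3.97 against whole animal, SD 0.299, n = 3). For fkh, the gene of Fork head, the difference was 0.88 (SE 0.31, adjusted p = 0.06), and for eyg, a paired-domain gene of the gland, 0.79 (SE 0.271, adjusted p = 0.0563). The count of regulators that passed was 3 in place of 1 under quantile normalization, without epidermis replicate 1 and without wing disc replicate 1, and 2 without gland replicate 1 or 2 or wing disc replicate 2 or 3.

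Genes for the transferases that start mucin sugar chains were higher in part. Of 9 tested mucin glycosylation genes 5 passed as higher, 1 as lower and 3 did not pass, with a median of 1.0 (7.72% of all features were higher and 10.3% lower). Pgant6 was higher by 3.43 (SE 0.213, adjusted p = 1.42e-08), Pgant1 by 3.34 (SE 0.307) and Pgant7 by 2.73 (SE 0.302). C1GalTA, which adds the next sugar, was lower at -0.72 (SE 0.223, adjusted p = 0.0375). Leaving out single arrays gave 3 to 6 higher and 0 to 1 lower. Epidermis replicates 1 and 2, wing disc replicates 1 and 2 and midgut replicate 2 each gave 3 higher when left out, because Pgant8 and Pgant9 then had too few arrays to be tested. Without gland replicate 1 the count was also 3, since Pgant8 could not be tested and Pgant9 did not pass (adjusted p = 0.0503). C1GalTA did not pass without gland replicate 1 or 3, midgut replicate 2, or central nervous system replicate 2 or 3, and could not be tested without wing disc replicate 1 or 2.

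Of 8 tested ecdysone response genes 1 passed, the nuclear receptor gene Hr78, which was higher, and the other 7 did not pass. Their median was 0.04, and 7.72% of all features passed as higher in this contrast. Hr78 had no value on central nervous system replicate 3 and could not be tested without replicate 1 or 2 of that tissue. For br, whose Broad proteins act on glue genes, the difference was 0.10 (SE 0.218, adjusted p = 0.813). For EcR, the receptor gene, it was 0.56 (SE 0.447, adjusted p = 0.449).

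Markers of other cell types were set beside the gland values of the glue genes. Of 8 tested fat body markers 5 were higher in the gland than in the other 4 tissues, led by Lsp2 at 3.85 (SE 0.331), Fbp2 at 2.91 (SE 0.305) and Fbp1 at 2.37 (SE 0.373). The mean of 5 such markers was -1.31 to -0.23 on gland arrays, -2.11 to -1.68 on epidermis arrays and -4.08 to -2.90 on the rest. Relative to whole animal, 0 of 8 fat body markers were higher in the gland and 3 were lower by limma, against 18.6% of all features lower, while the glue genes were 9.52-fold to 38.5-fold higher. Of 10 hemocyte markers, listed because Eig71Ee has been described in blood, 1 was higher in the gland than elsewhere, vkg at 0.69, where 7.72% of all features were higher. Their mean was -1.47 to -0.77 in the gland and -1.46 to -0.69 in epidermis, where Eig71Ee was at -3.76. Of 12 midgut markers 0 were higher and 5 lower in the gland, where 10.3% of all features were lower, and of 7 muscle markers 0 were higher and 2 lower. None of 5 neuron and glia, 3 wing disc or 8 cuticle markers were higher there, and 1, 3 and 3 of them were lower. The part of fat body or blood cell RNA in the gland values was not tested.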

How the data were processed

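RNA of 5 dissected tissues was measured on 15 two-colour arrays against whole animals. The authors deposited log2 ratios, with tissue in Cy5 divided by whole animal in Cy3 per the labels. How the authors corrected background and normalized is not given in the sources used. Groups and replicate numbers came from the sample titles. P-values of the limma fit reflect how the independent samples of a tissue vary. Those of the permutation test of gland against other arrays also hold differences among the other tissues.

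Of 20000 rows, 14051 had a value. Rows were named from the array's annotation, and 10813 of 10817 with 1 gene matched a current RefSeq record. Arrays were centred on their medians, as deposited -0.137 to 0.0816, and rows of a gene averaged into 13128 features. limma 3.58.1 in R 4.3.3 fitted 1 mean per tissue, with at least 2 arrays in each tissue compared and Benjamini-Hochberg adjustment over all features. It was tested on simulated data. The number of arrays limits precision. Python 3.11.15, numpy 2.4.6, pandas 2.3.3 and matplotlib 3.10.9 did the rest.

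Genes named were the 4 members, listed genes needed beside a count, at most 3 leading genes of other lists and the 5 nearest genes per member; neighbours were added later. Correlations over all arrays are not given, because gland arrays form a cluster of their own. Members and lists were chosen with earlier results of these data known. Same-numbered arrays of different tissues correlated above 0.1 in 11 of 30 pairs (deviations from tissue means, -0.487 to 0.352), so the numbers were not taken as pairs. Alternatives were no centring, scaling, quantile normalization, features on all arrays, single rows, another prior, array weights, a replicate block, a minimum difference of log2 1, and each array left out.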

Additional observations from a re-analysis of the deposited data

How the results depend on the processing

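The 24 gland results of the 4 genes kept direction and side of the threshold in all 576 alternatives. Against the mean of the other 4 tissues, Sgs1 ran from 5.34 to 6.72, Sgs5 from 7.53 to 9.01, Sgs5bis from 4.83 to 5.63 and Eig71Ee from 7.52 to 9.28. Of 960 alternatives for the other 40 results, 28 passed in addition, 2 no longer passed and 0 were reversed. With a replicate block, Sgs5 stayed at 8.77 against the other 4 tissues, 2 pairs of Sgs5 passed in addition (epidermis minus midgut 1.19, adjusted p = 0.0279; epidermis minus central nervous system 1.10, adjusted p = 0.0442), 2 gland regulators were higher, and the block changed no other call of these genes; 9 of 15 arrays correlated best with their own number, which is a hint from the data and not from the design.

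With arrays left out singly, the gap of Sgs5 minus Sgs1 ran from 2.28 to 3.08 and that of Eig71Ee minus Sgs1 from 1.94 to 2.89. Among the other 4 tissues, the size used was the square root of the between-tissue mean square. It is weighted by the arrays per tissue, so it exceeds the spread of the tissue means in log2. For Sgs5 minus Sgs5bis (2.06) it ran from 1.73 to 2.18, and for Eig71Ee minus Sgs5bis (0.80) from 0.608 to 0.85. For Eig71Ee minus Sgs5 (1.34) it ran from 0.992 to 1.54, and this pair passed without central nervous system replicate 1. The size was 1.86 and 0.729 for the first 2 pairs under quantile normalization and 0.946 for Eig71Ee minus Sgs5bis after scaling, and these did not pass.

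Of all features, 651 were higher and 870 lower in the gland, 396 to 662 and 429 to 949 with arrays left out (fewest without gland replicate 1; 564 lower without gland replicate 3), and 433 and 325 at a minimum difference of log2 1. Over features on all 15 arrays, where Eig71Ea, Pgant8, Pgant9, C1GalTA and Hr78 could not be tested, the higher counts were 1 in the Eig71E cluster, 3 for mucin glycosylation and 0 for ecdysone response. The higher counts ran from 1 to 2, 3 to 6 and 0 to 1 with arrays left out. Gland regulators counted 2 after scaling, 3 under quantile normalization, 3 with the trended prior, 2 with array weights, and 1 to 3 with arrays left out. The lower mucin glycosylation gene was lost (0) over features on all arrays, with array weights, at a minimum difference of log2 1 and in some arrays left out (0 to 1). Eig71Ea and Hr78 were lost only where they had too few arrays to be tested; for calls lost in a test the cause was not tested.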
